A study of Homo sapiens with 16 samples.

Results

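The CLK kinases and the SR proteins they phosphorylate were described across the 6 treatment groups of a mitogen experiment in fibroblasts, from the levels of their messenger RNAs. The group holds 10 of the 28374 genes in the deposited table, namely CLK1, CLK2, CLK3, CLK4, SRSF1, SRSF2, SRSF3, SRSF5, SRSF6 and SRSF7, and all 10 passed the filter on low counts. CLK1 was chosen by its measured levels in these same libraries, for how they varied with EGF and H89, and the other members are its family and substrates. The differences of CLK1 that use EGF, H89 or control libraries are therefore given as a description with no test, and CLK1 is left out of the counts of members in those comparisons.

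RNA was sequenced from the human dermal fibroblast line CCD-1070Sk, grown from normal skin, and every group, controls included, had been deprived of serum beforehand. The TPA+H89 group (2 libraries) had 10 µM H89 for 30 min and then 100 nM TPA for 1 h, and the EGF+H89 group (2 libraries) had the same H89 pretreatment and then 30 ng/ml EGF for 1 h. The H89 group (3 libraries) had 10 µM H89 with no mitogen and is recorded at 0 h, so its time in H89 may be shorter than that of the mitogen groups. The TPA group (2 libraries) had 100 nM TPA for 1 h, the EGF group (3 libraries) had 30 ng/ml EGF for 1 h, and the control group (3 different libraries) had no treatment at 0 h. TPA is a phorbol ester that activates protein kinase C, EGF acts through its receptor tyrosine kinase, and H89 inhibits protein kinase A and, as used in the study, the mitogen- and stress-activated kinases MSK1 and MSK2. All cells were of 1 line, and nothing in the labels says whether the libraries of a group came from separate cultures, so p-values measure the spread between these libraries, which may be technical.

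SR proteins bind exonic enhancers through RNA recognition motifs and recruit the splicing machinery through tails rich in arginine and serine. CLK kinases phosphorylate those tails in the nucleus, which releases SR proteins from nuclear speckles and sets their activity in splicing. Many genes of both families control their own output by splicing, through poison exons that send the transcript to nonsense-mediated decay or through introns that are kept in nuclear transcripts. CLK1 and CLK4 are known for such retained introns, whose removal responds quickly when CLK activity or stress changes.

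Start-site regions of RefSeq (GRCh38.p14, 250 bases before to 50 after each start) were found for 9 of the 10 members, in 12 entries, and SRSF2 had no entry. They were searched on both strands for motifs of factors that mitogen-activated kinases act on, because MSK kinases phosphorylate CREB, which binds the cAMP response element. The full element TGACGTCA was in 0 of the 12 member entries, against 1.85% of all 35116 RefSeq regions of this length. Its core TGACG, which is contained in the full element, was in 8 of the 12 entries, those of CLK1, CLK3, CLK4, SRSF1, SRSF3, SRSF5 and SRSF7, against 24.6% of all regions. The entries of CLK1 overlap and hold the same site, which is counted in each. The AP-1 site TGACTCA, held by 4.95% of all regions, and the CArG box of serum response factor, held by 1.29%, were in 0 of the 12. A match describes letters only and is not evidence of binding. The 4 regions below were chosen among those that hold the core. The regions of CLK2 and SRSF6, an entry of CLK3 and the other SRSF7 entry do not hold it. Capitals mark the core, read as TGACG on the gene's strand or CGTCA where it lies on the other strand.
CLK1, chr2:200864609-200864908, minus strand: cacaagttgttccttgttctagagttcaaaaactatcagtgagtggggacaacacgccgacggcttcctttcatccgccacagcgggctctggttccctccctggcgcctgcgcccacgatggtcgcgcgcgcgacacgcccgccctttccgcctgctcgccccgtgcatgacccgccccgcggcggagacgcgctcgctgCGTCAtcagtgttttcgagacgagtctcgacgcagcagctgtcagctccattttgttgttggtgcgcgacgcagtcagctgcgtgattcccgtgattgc
CLK4, chr5:178627001-178627300, minus strand: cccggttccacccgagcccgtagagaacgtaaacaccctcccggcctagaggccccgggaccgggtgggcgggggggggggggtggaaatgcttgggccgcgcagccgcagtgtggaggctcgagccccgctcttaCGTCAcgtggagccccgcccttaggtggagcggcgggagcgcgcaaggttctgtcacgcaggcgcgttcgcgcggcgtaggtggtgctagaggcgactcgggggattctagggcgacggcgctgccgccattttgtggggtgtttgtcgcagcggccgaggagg
SRSF3, chr6:36594112-36594411, plus strand: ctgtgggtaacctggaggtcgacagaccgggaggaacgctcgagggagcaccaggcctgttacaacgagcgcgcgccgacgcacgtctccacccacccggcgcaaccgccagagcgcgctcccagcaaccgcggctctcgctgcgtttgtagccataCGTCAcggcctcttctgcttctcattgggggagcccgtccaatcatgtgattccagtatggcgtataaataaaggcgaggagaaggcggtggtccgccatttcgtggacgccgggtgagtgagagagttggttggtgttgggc
SRSF7, chr2:38751312-38751611, minus strand: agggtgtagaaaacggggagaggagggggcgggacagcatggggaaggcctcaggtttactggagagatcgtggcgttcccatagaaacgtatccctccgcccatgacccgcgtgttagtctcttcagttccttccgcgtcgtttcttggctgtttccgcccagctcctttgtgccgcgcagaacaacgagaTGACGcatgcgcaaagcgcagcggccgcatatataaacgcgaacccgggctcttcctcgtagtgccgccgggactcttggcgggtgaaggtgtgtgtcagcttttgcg
The core lay 49 bases before the start in CLK1, 114 in CLK4, 93 in SRSF3 and 58 in SRSF7. It was on the opposite strand in CLK1, CLK4 and SRSF3 and on the gene's own strand in SRSF7.

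A gene-level value of these genes sums over transcripts with different fates. In GENCODE release 29, 9 of the 10 members have at least 1 transcript classed as a target of nonsense-mediated decay, against 35.6% of 19969 protein-coding genes, and CLK2 has 0. Transcripts with a retained intron are annotated for 8 of the 10 members, against 46.1% of protein-coding genes. CLK1 on chromosome 2 has 15 annotated transcripts, of which 8 are classed as retained intron and 4 as coding. CLK4 on chromosome 5 also has 15, of which 7 are classed as retained intron, 3 as decay targets and 4 as coding. SRSF7 on chromosome 2 has 12, of which 6 are decay targets. The deposited counts give 1 value per gene, so these forms cannot be told apart in what follows.

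Library totals ran between 7527026 counts (TPA+H89 library 1) and 130075914 (TPA library 2), and a member had between 31 counts (CLK2 in TPA+H89 library 1) and 19184 (SRSF1 in TPA library 2). A control deposited as a separate sample equalled control 3 in every gene and was not counted again, which left 15 libraries. The counts split the libraries into 3 technical batches. In the first, made up of EGF 1 and control 1, a count of 1 was commoner than a count of 2. EGF 1 had 0.0183% and control 1 had 4.48% of counts on the ribosomal RNA genes RNR1 and RNR2. In this batch EGF and a technical difference therefore cannot be told apart. The second had 11.7% to 30.4% of its counts on the ribosomal RNA genes RNR1 and RNR2 and holds library 1 of TPA+H89, EGF+H89, H89 and TPA with EGF 2 and control 2. The third had 0 counts on those genes and holds all the rest. The second and the third batch each contain every group. The third holds H89 libraries 2 and 3, which were averaged in its within-batch values although they differed for some members. Control 3 was also deposited as a separate sample, so which other libraries it was run with is not known. Whether the order of the sample names divides the third batch further was not tested. Within the second, TPA 1 and TPA+H89 1 had 11.7% and 12.0% on those genes and the other 4 libraries had 24.8% to 30.4%, so in this batch TPA and a technical difference cannot be told apart, except in TPA+H89 against TPA. The cells matched their label, with 12 of 12 fibroblast markers detected at a summed 29100 to 72400 CPM, the counts per 1000000 counts of the library. Keratinocyte markers summed to at most 44.4 CPM and leukocyte markers to at most 76.6 CPM. In bulk RNA, fewer cells of a type and less RNA per cell cannot be told apart. As a check of the treatments, EGR2, an immediate-early transcription factor, rose by 5.49 ± 0.566 (SE) on the log2 scale in TPA and by 4.11 ± 0.516 in EGF against control, with adjusted p of 0.00131 and 0.0207 by edgeR's quasi-likelihood test.

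Levels of the members are CPM after TMM scaling (trimmed means of M values), so they compare a gene between libraries and not 1 gene with another. Fold changes are edgeR's log2 values. With CLK1 left out where its choice used the libraries, 0 members passed an adjusted p of 0.05 by edgeR's quasi-likelihood test in any of the 10 comparisons, and the unadjusted counts and those of DESeq2 follow the single genes. TPA had the most genes called against control, 0.415% of the 18575 tested.

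CLK1, the kinase of the family best known for phosphorylating SR proteins in speckles, had its lowest group mean under H89 alone and its highest group means where a mitogen was added to H89. Its levels were 73.3 and 107 CPM in TPA+H89 and 102 and 91.9 CPM in EGF+H89. They were 54.6, 40.4 and 25.9 CPM in H89, 50.6 and 74.8 CPM in TPA, and 55.6, 81.8 and 73.0 CPM in EGF. Controls had 44.2, 94.1 and 98.7 CPM. The 4 libraries with a mitogen and H89 were all above the 3 with H89 alone, while the H89 and control groups overlapped because control 1, of the first batch, lay between H89 libraries 1 and 2.

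The group means of CLK1 were 90.3 ± 24.2 CPM in TPA+H89 (SD, n = 2), 96.8 ± 6.83 in EGF+H89 (n = 2), 40.3 ± 14.4 in H89 (n = 3), 62.7 ± 17.2 in TPA (n = 2), 70.1 ± 13.3 in EGF (n = 3) and 79.0 ± 30.2 in control (n = 3). Ordered downwards they ran EGF+H89, TPA+H89, control, EGF, TPA and H89, and every pair of neighbours in that order had overlapping libraries. The differences that chose the gene were a log2 fold change of 1.26 for EGF+H89 against H89, of 0.46 for EGF+H89 against EGF, of -0.97 for H89 against control and of -0.17 for EGF against control. The last of these differed in sign between batches: it was 0.33 in the first batch, -0.20 in the second and -0.44 in the third. The EGF by H89 interaction, the EGF difference with H89 minus that without it, was 1.44 on the log2 scale, with 1.10 in the second batch and 1.94 in the third.

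**Figure D1:**
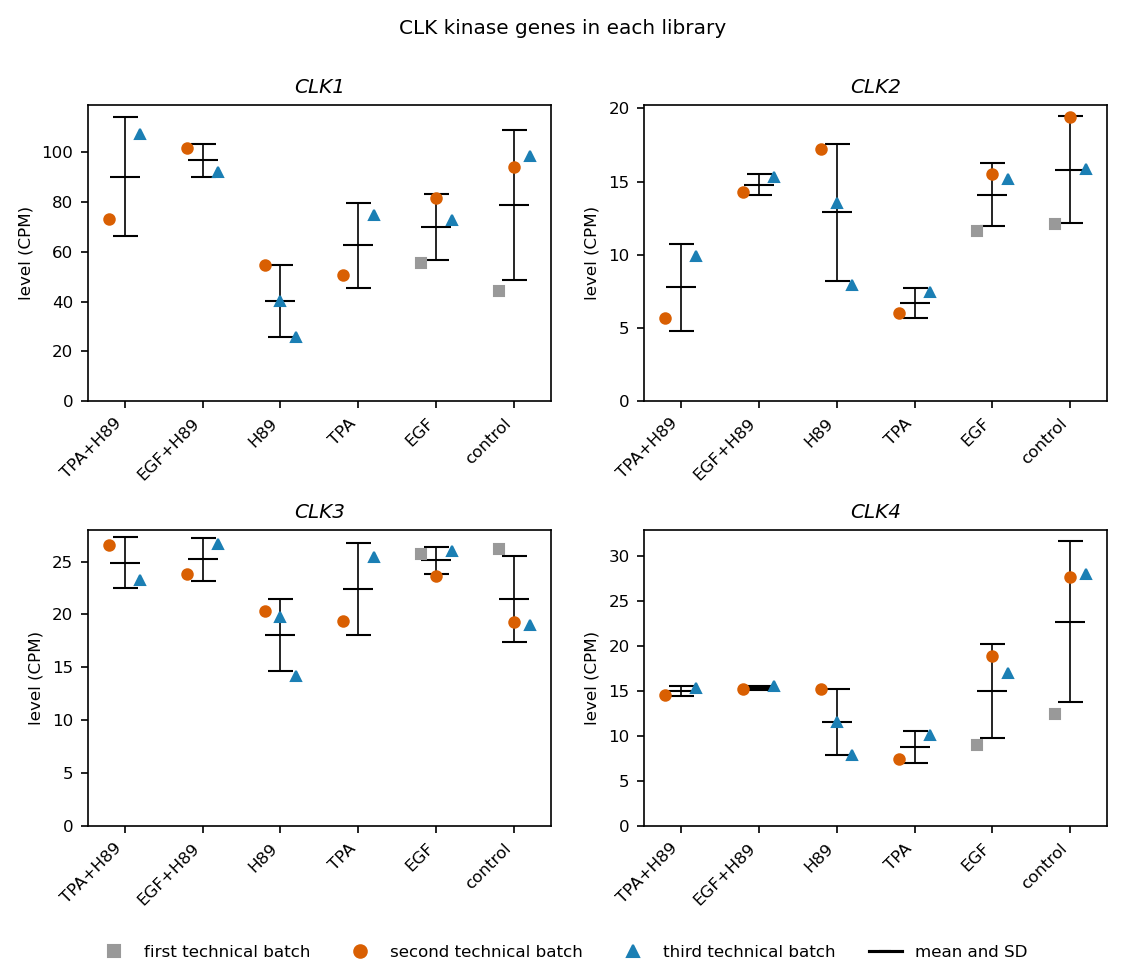
Levels of the 4 CLK kinase genes in CPM (y axis, from 0) in each library of the 6 groups (x axis). Symbols give the technical batch, and bars the mean and SD of the group. CLK1 has its lowest group mean in H89, at 25.9 to 54.6 CPM, a range that overlaps the controls. CLK2 in TPA, at 5.98 and 7.44 CPM, lies below all controls. CLK4 in both TPA libraries lies below all 3 controls.

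In TPA+H89 against TPA, the comparison that uses none of the libraries that chose CLK1, its log2 fold change was 0.53 ± 0.423 (SE), with adjusted p = 0.863 by edgeR's quasi-likelihood test. That difference was nearly equal in the batches, at 0.53 in the second and 0.52 in the third, and was 0.22 without TPA+H89 library 2. The other values of the TPA arm rest on the H89 or control libraries that chose the gene and are a description. TPA+H89 exceeded H89 by 1.17 on the log2 scale, with 0.42 in the second batch and 1.73 in the third, and the value ranged between 0.86 and 1.45 when single libraries were left out. TPA against control was -0.33, with -0.90 in the second batch, -0.40 in the third and -0.09 in the fit without TPA library 1.

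CLK4, the closest relative of CLK1, was lower in TPA than in control in every library. It had 7.47 and 10.0 CPM in TPA, against 12.4, 27.7 and 28.0 CPM in control. The groups did not overlap, and the lowest control was again library 1 of the first batch. The log2 fold change was -1.37 ± 0.427 (SE; 95% interval -2.29 to -0.45), with adjusted p = 0.241. Within batches it was -1.89 in the second and -1.48 in the third. With a term for the technical batch in the model the value was -1.63 ± 0.302 and passed, with adjusted p = 0.0112, in a fit that called 1.25% of genes. The second batch was also split by its share of ribosomal RNA counts, a split chosen after seeing the data. There the value was -1.41 ± 0.314 with adjusted p = 0.00924, in a fit that called 11.2% of genes. That split put TPA 1 and TPA+H89 1 in a batch without controls. TPA against control then rests on the third batch, where TPA 2, by far the deepest library, is the only TPA library.

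CLK4 in the other groups lay between the lowest TPA and the highest control library. It had 9.01, 18.9 and 17.01 CPM in EGF, a log2 fold change of -0.60 ± 0.366 against control (adjusted p = 1), with values of -0.46, -0.55 and -0.72 in the first, the second and the third batch. H89 libraries had 15.2, 11.5 and 7.89 CPM, a log2 fold change of -0.98 ± 0.368 against control with adjusted p = 1, and these groups overlapped. Within batches that difference was -0.86 in the second and -1.55 in the third. The TPA+H89 libraries had 14.6 and 15.4 CPM and the EGF+H89 libraries 15.2 and 15.5 CPM, close to each other and below 2 of the 3 controls.

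Against the mitogen or the inhibitor alone, CLK4 under both was higher or overlapped. TPA+H89 lay above both TPA libraries, a log2 fold change of 0.77 ± 0.451 (adjusted p = 0.766), with 0.97 in the second batch and 0.61 in the third. EGF+H89 against EGF gave 0.04 ± 0.407 with overlapping groups, and -0.31 in the second batch and -0.13 in the third. Against H89 alone TPA+H89 differed by 0.38 ± 0.407 and EGF+H89 by 0.41 ± 0.404, each with overlapping groups. The EGF by H89 interaction of CLK4 was 1.01 ± 0.544 (adjusted p = 1; 0.55 in the second batch and 1.42 in the third). The TPA by H89 interaction was 1.75 ± 0.583, with adjusted p = 0.900 (1.83 in the second batch and 2.17 in the third). With the batch term and the second batch split it was 2.01 ± 0.369 and passed, with adjusted p = 0.0154, in a fit that called 0.716% of genes. For CLK1 the TPA by H89 interaction was 1.5 (1.32 in the second batch and 2.13 in the third), given without a test because it uses the same H89 and control libraries as the pattern that chose the gene.

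CLK2, known in mouse liver as an insulin-responsive kinase that lowers expression of gluconeogenic genes, was lower in both TPA libraries than in every control and every EGF library. Its levels were 5.98 and 7.44 CPM in TPA, against 12.1, 19.4 and 15.9 CPM in control, with no overlap. The log2 fold change was -1.23 ± 0.37 (SE; 95% interval -2.03 to -0.43), with adjusted p = 0.222, and -1.36 ± 0.348 with adjusted p = 0.0723 with the batch term (-0.97 ± 0.352, which did not pass, with the second batch split). The within-batch values were -1.70 in the second and -1.09 in the third. EGF libraries had 11.6, 15.6 and 15.2 CPM, a log2 fold change of -0.16 ± 0.318 against control. TPA was below all EGF libraries, by -1.07 ± 0.367 on the log2 scale, with adjusted p = 0.329, and by -1.38 in the second batch and -1.03 in the third.

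With H89 present the TPA difference of CLK2 was seen in the second batch but hardly in the third. In the third, TPA+H89 library 2 lay between H89 libraries 2 and 3. TPA+H89 libraries had 5.65 and 9.88 CPM, against 17.2, 13.5 and 7.94 CPM in H89, and the groups overlapped. The log2 fold change was -0.71 ± 0.366 (adjusted p = 1), made of -1.61 in the second batch and -0.07 in the third, and was -0.37 without TPA+H89 library 1, which had 31 counts of the gene. H89 against control gave -0.29 ± 0.318, and -0.04 without H89 library 3. The pseudogene CLK2P1 had 0 to 1.92 CPM. In the second batch it had 18 counts in TPA 1 and 32 in control 2, and in the third 0 in TPA 2 and control 3. What the pseudogene adds to the counts of CLK2 was not tested.

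CLK3, the remaining family member, had the narrowest range among the kinases. Its levels were 26.6 and 23.2 CPM in TPA+H89, 23.8 and 26.6 CPM in EGF+H89, and 20.3, 19.8 and 14.2 CPM in H89. They were 19.4 and 25.5 CPM in TPA, 25.8, 23.6 and 26.0 CPM in EGF, and 26.2, 19.3 and 19.0 CPM in control. Both mitogen groups with H89 lay above all H89 libraries, by 0.46 ± 0.246 (adjusted p = 1) for TPA+H89 and 0.48 ± 0.245 (adjusted p = 1) for EGF+H89 on the log2 scale. EGF against control gave 0.23 ± 0.221 and H89 against control -0.25 ± 0.221, each with overlapping groups. Exons of EDC3 and of a long noncoding RNA overlap those of CLK3 on the other strand, and EDC3 had group means of 5.22 to 10.1 CPM. Use of strand in the counting is not stated in the sources used here. On the same strand, exons of RN7SKP70 overlap those of CLK4, exons of AC015813.2 those of SRSF1 and MIR636 those of SRSF2. What these overlaps add to the counts was not tested.

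SRSF2, also called SC35, an SR protein that binds exonic enhancers rich in G or C, had the lowest unadjusted p of the members in TPA against control. It had 110 and 157 CPM in TPA, against 45.3, 71.1 and 55.2 CPM in control. The lower TPA library exceeded the highest control, and the log2 fold change was 1.22 ± 0.319 (SE; 95% interval 0.53 to 1.91), with adjusted p = 0.181. It was 0.63 in the second batch and 1.51 in the third, and 0.98 ± 0.269 with adjusted p = 0.0893 with the batch term. With the second batch split as well, it was 1.3 ± 0.26 and passed, with adjusted p = 0.00477. That fit called 11.2% of genes, and in it TPA against control rests on the third batch. EGF libraries had 49.9, 106 and 96.3 CPM, a log2 fold change of 0.56 ± 0.29 against control (adjusted p = 1). That difference was 0.14 in the first batch, 0.58 in the second and 0.80 in the third, so the EGF library of the first batch alone lay inside the control range.

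In H89 SRSF2 was at 75.9, 64.5 and 67.4 CPM. TPA+H89 libraries were above these at 83.1 and 113 CPM and EGF+H89 libraries at 111 and 108 CPM. The log2 fold changes against H89 were 0.50 ± 0.321 (adjusted p = 1) for TPA+H89 and 0.66 ± 0.32 (adjusted p = 1) for EGF+H89. TPA+H89 against TPA gave -0.44 ± 0.355 with overlapping groups, and -0.16 without TPA library 2. TPA exceeded every EGF library, by 0.67 ± 0.32 (adjusted p = 0.383). Exons of MFSD11 overlap those of SRSF2 on the other strand. Group means of MFSD11 lay between 21.0 CPM in TPA and 29.2 CPM in TPA+H89, with 21.8 CPM in control. How reads in the shared exons were assigned was not tested.

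**Figure D2:**
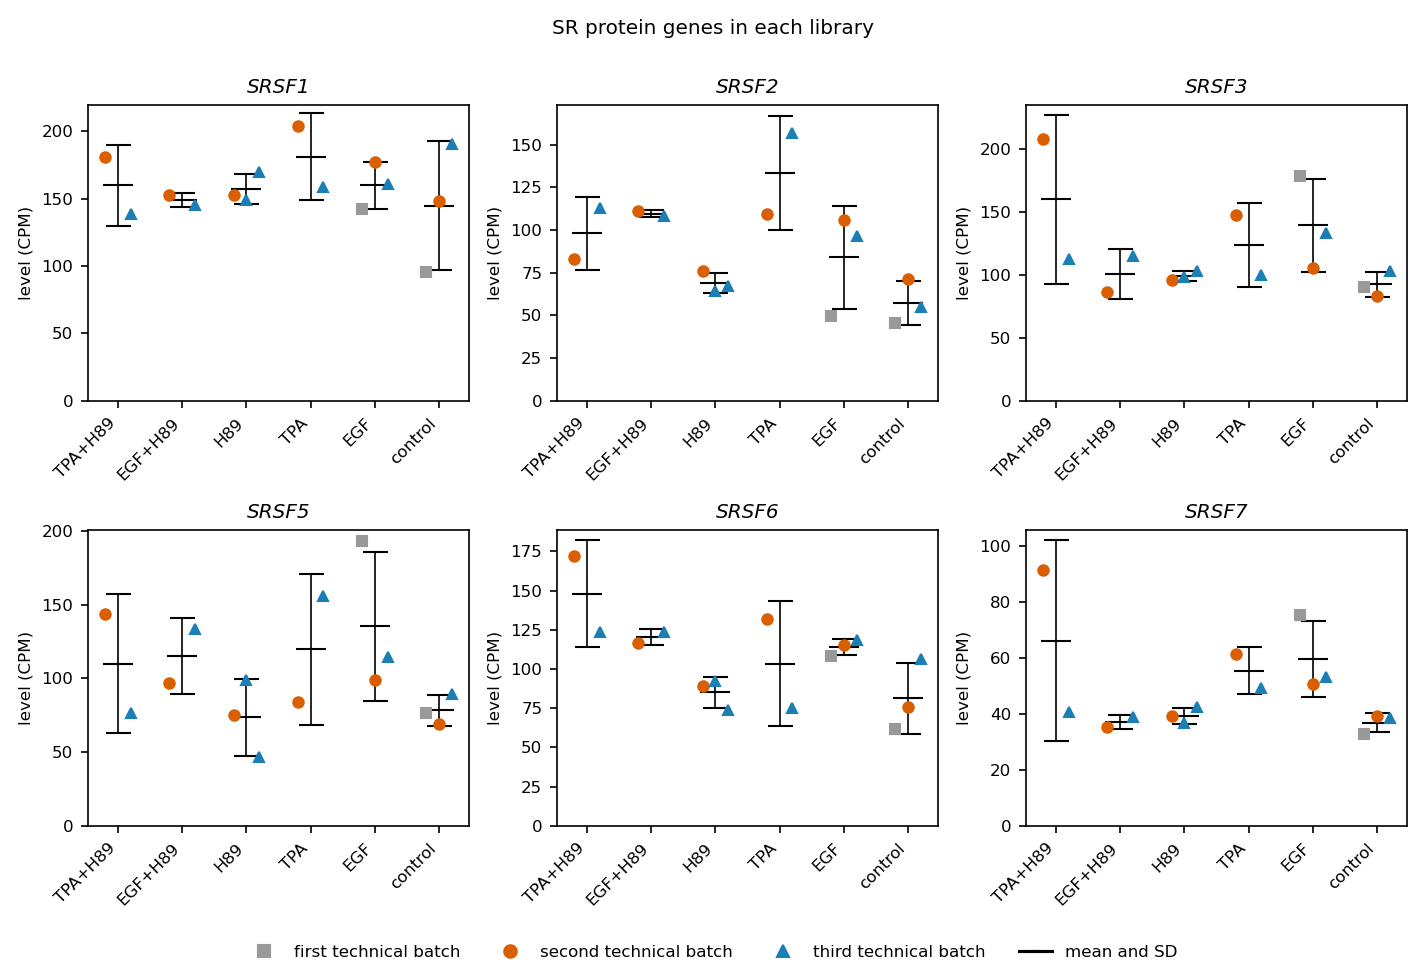
Levels of the 6 SR protein genes in CPM (y axis, from 0) in each library of the 6 groups (x axis), with symbols for technical batch and bars for the mean and SD. SRSF2 in TPA lies at 110 and 157 CPM, above all controls. SRSF3, SRSF5 and SRSF7 are highest in EGF library 1 of the first batch or TPA+H89 library 1 of the second.

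SRSF3 and SRSF7 are related small SR proteins that also serve as adaptors for export of messenger RNA through NXF1. SRSF7 had 75.4, 50.7 and 53.2 CPM in EGF, against 32.9, 39.4 and 38.5 CPM in control. All EGF libraries were above all controls, and the log2 fold change was 0.69 ± 0.274 with adjusted p = 1. The first batch gave 1.20, the second 0.36 and the third 0.47, and the value was 0.48 without EGF library 1. TPA libraries had 61.4 and 49.5 CPM, also above all controls, a log2 fold change of 0.59 ± 0.302 (adjusted p = 0.415) that was 0.26 with the batch term and the second batch split.

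With H89 present, SRSF7 in EGF-treated cells lay below every EGF library. EGF+H89 libraries had 35.5 and 38.9 CPM, a log2 fold change of -0.69 ± 0.311 with adjusted p = 1. The difference was -0.52 in the second batch and -0.45 in the third, and -0.48 without EGF library 1. H89 libraries had 39.2, 36.7 and 42.4 CPM, a range that overlapped those of EGF+H89 and of control. The EGF by H89 interaction was -0.78 ± 0.412 (adjusted p = 1), so the difference between the EGF response with and without H89 did not pass. TPA+H89 had 91.7 and 40.9 CPM, far apart, and its log2 fold change of 0.74 ± 0.302 against H89 (adjusted p = 1) was 1.23 in the second batch and 0.05 in the third. Without TPA+H89 library 1, the shallowest of all, it was 0.06.

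SRSF3 had a like order of group means. It had 179, 106 and 133 CPM in EGF, against 90.5, 83.6 and 103 CPM in control, with no overlap and a log2 fold change of 0.59 ± 0.28 (adjusted p = 1). The value was 0.98 in the first batch, 0.34 in the second, 0.37 in the third and 0.36 without EGF library 1. EGF+H89 libraries had 86.6 and 115 CPM, a log2 fold change of -0.47 ± 0.316 against EGF (adjusted p = 1) with overlapping groups, and -0.25 without EGF library 1. TPA libraries had 147 and 99.8 CPM, a log2 fold change of 0.42 ± 0.31 against control, 0.08 without TPA library 1 and -0.01 with the batch term and the second batch split. TPA+H89 libraries had 207 and 113 CPM, against 95.6, 97.9 and 103 CPM in H89, a log2 fold change of 0.69 ± 0.309 (adjusted p = 1) that was 0.19 without TPA+H89 library 1.

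SRSF5, named in early work as an insulin- and growth-responsive SR protein of rat liver, had 193, 98.8 and 114 CPM in EGF, against 76.3, 69.1 and 89.6 CPM in control. The groups did not overlap, with a log2 fold change of 0.79 ± 0.37 (adjusted p = 1), 1.34 in the first batch, 0.52 in the second, 0.35 in the third and 0.43 without EGF library 1. TPA libraries had 83.7 and 156 CPM, a log2 fold change of 0.61 ± 0.407 against control (adjusted p = 0.477) that was 0.10 without TPA library 2. The H89 libraries spread between 46.8 and 98.9 CPM, and TPA+H89 (143 and 76.5 CPM) and EGF+H89 (96.8 and 133 CPM) overlapped them. Without TPA+H89 library 1 the TPA+H89 difference from H89 was 0.07, against 0.58 ± 0.408 with it.

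SRSF6, an SR protein known in mouse for driving overgrowth of the epidermis when overexpressed, had 108, 116 and 118 CPM in EGF, against 61.9, 75.8 and 106 CPM in control. The EGF libraries were close together and all above the controls, the nearest of which was control 3, and the log2 fold change was 0.49 ± 0.265 (adjusted p = 1). Its values were 0.81 in the first batch, 0.61 in the second and 0.15 in the third. TPA libraries had 132 and 75.2 CPM, and their log2 fold change of 0.35 ± 0.293 against control was -0.13 without TPA library 1 and -0.17 with the batch term and the second batch split. With H89 the mitogen groups were the higher ones. TPA+H89 libraries had 172 and 124 CPM and EGF+H89 libraries 117 and 124 CPM, all above the H89 libraries at 88.97, 92.6 and 74.1 CPM. The log2 fold changes against H89 were 0.80 ± 0.292 for TPA+H89 (adjusted p = 1; 0.95 in the second batch and 0.58 in the third) and 0.50 ± 0.293 for EGF+H89 (adjusted p = 1).

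SRSF1, the first SR protein described and a regulator of exon definition, had a highest group mean 1.25 times its lowest, the smallest such ratio among the 10 members. Its group means were 160 ± 30.1 CPM in TPA+H89, 149 ± 4.88 in EGF+H89, 157 ± 11.2 in H89, 181 ± 32.0 in TPA, 160 ± 17.4 in EGF and 145 ± 47.9 in control (SD). EGF against control gave 0.15 ± 0.258 and TPA against control 0.32 ± 0.287, with signs that differed between batches. The controls alone spread between 95.3 and 191 CPM, wider than the difference between any group means.

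**Figure D3:**
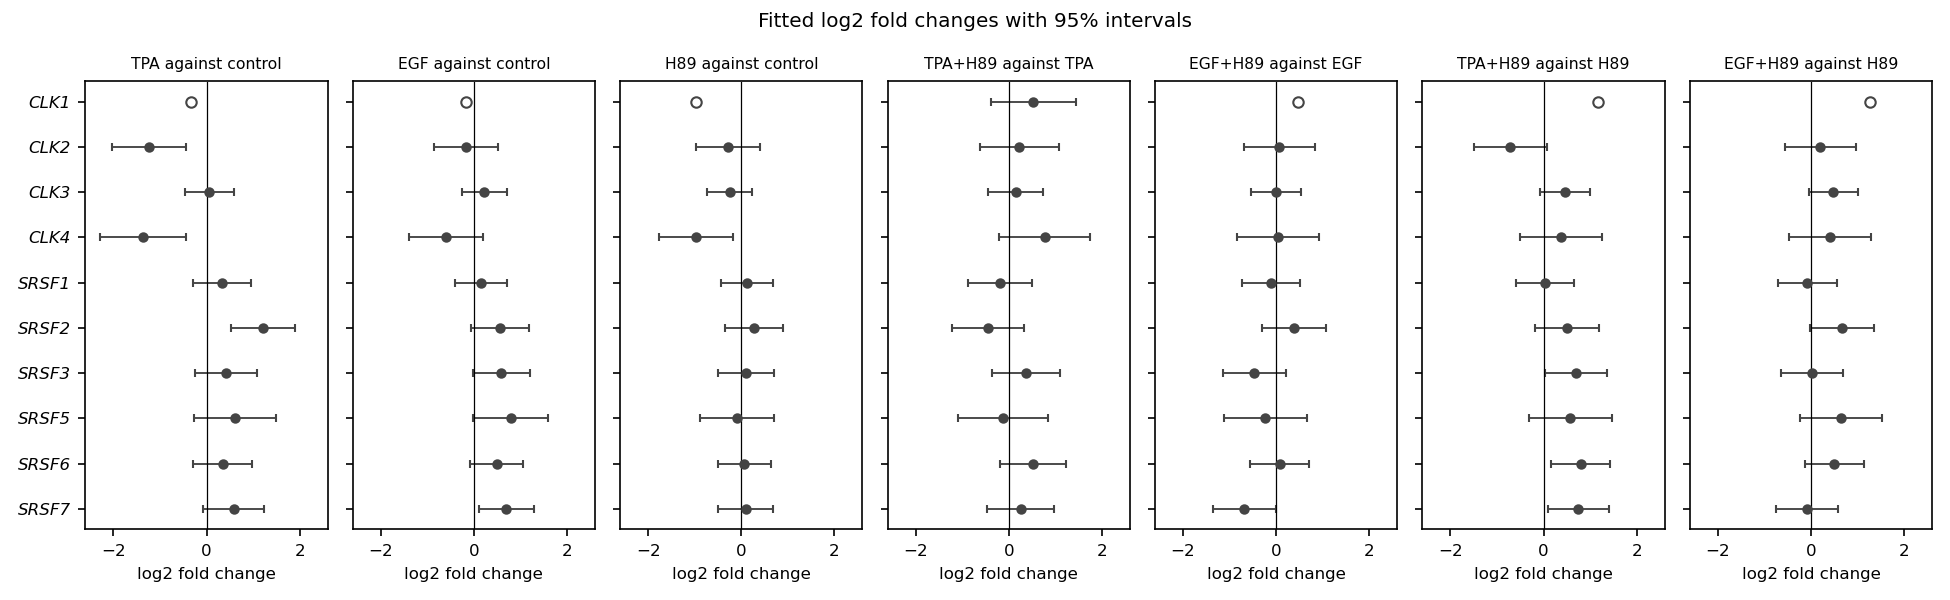
Log2 fold changes (x axis) of the 10 members (y axis) in 7 comparisons, with 95% intervals. Open circles without an interval mark CLK1 in the 6 comparisons that use libraries that chose it. In TPA against control the intervals of CLK2, CLK4 and SRSF2 lie clear of 0, at unadjusted confidence.

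Set beside all tested genes, the members' counts read as follows. CLK1 is counted only in TPA+H89 against TPA, and the others number 9. In TPA against control 0 of 9 passed the adjusted threshold by edgeR, and 3 of 9, CLK2, CLK4 and SRSF2, had an unadjusted p under 0.05, against 13.2% of tested genes. DESeq2 called those 3 in that comparison, with 2.7% of genes called. Groups did not overlap for 2 members that were higher, SRSF2 and SRSF7, against 9.6% of tested genes, and for 2 that were lower, CLK2 and CLK4, against 10.1%. In EGF against control, where edgeR called 0.0269% of genes and no member, 1 member, SRSF7, had an unadjusted p under 0.05, against 1.63% of tested genes. There the groups did not overlap for 4 members that were higher, SRSF3, SRSF5, SRSF6 and SRSF7, against 2.97% of tested genes, and for 0 that were lower (1.99%).

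The counts in the other comparisons were between 0 and 3. H89 against control called 0% of genes, 1 of the 9 members (CLK4, lower) had an unadjusted p under 0.05 against 3.27%, and the groups overlapped for all 9. EGF+H89 against EGF called 0% of genes and 1 member, SRSF7, had an unadjusted p under 0.05 against 1.67%. TPA+H89 against TPA called 0%, and 0 of the 10 members, against 7% of tested genes, had an unadjusted p under 0.05. EGF+H89 against H89 called 0.0269%, with 0 of 9 members at an unadjusted p under 0.05 against 1.53%. TPA+H89 against H89 called 0.0969%, with 3 of 9 members, SRSF3, SRSF6 and SRSF7, at an unadjusted p under 0.05 against 3.89%, and each had its higher value in TPA+H89 library 1. TPA against EGF called 0%, with 1 member, CLK2, at an unadjusted p under 0.05 against 13.4%. The EGF by H89 interaction called 0%, with 0 of 9 members against 0.258%, and the TPA by H89 interaction called 0%, with 1 member, CLK4, against 4.78%. DESeq2 called 0 members in EGF against control and in these 8 comparisons.

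Groups that did not overlap were as follows in those comparisons. In H89 against control there were 0 higher (2.85% of tested genes) and 0 lower (4.25%). In TPA+H89 against TPA only CLK4 was higher, 1 of 10 members (10.6% of tested genes), and 0 were lower (11.1%). In EGF+H89 against EGF 1 of 9 was higher, SRSF2 (7.6%), and 1 lower, SRSF7 (10.1%). In TPA+H89 against H89 4 of 9 were higher, CLK3, SRSF2, SRSF3 and SRSF6 (9.92%), and 0 lower (10.9%). In EGF+H89 against H89 3 of 9 were higher, CLK3, SRSF2 and SRSF6 (10.7%), and 0 lower (11.9%). In TPA against EGF SRSF2 was higher (9.71%) and CLK2 lower (11.1%). Both comparisons with H89 alone use the same 3 H89 libraries, so their member counts are not separate observations.

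The SR proteins and the kinases other than CLK1 had medians on opposite sides of 0 after a mitogen alone. In TPA against control all 6 SR proteins had a positive log2 fold change, with a median of 0.50, and 2 of the 3 kinases CLK2, CLK3 and CLK4 a negative one, with a median of -1.23, beside -0.02 over all tested genes. Over the alternatives 5 or 6 SR proteins were positive, with the exception of the batch term with the second batch split, where 3 were, with a median of 0.13. The median of the 3 kinases there ranged between -1.40 and -0.97. In EGF against control the medians were 0.57 with 6 of 6 SR proteins positive and -0.16 with 2 of 3 kinases negative, beside 0.02 over all genes. Over the alternatives 5 or 6 SR proteins were positive there, and the median of the kinases ranged between -0.31 and 0.00. Both comparisons use the same controls. In H89 against control the 3 kinases were negative, with a median of -0.29, which ranged between -0.56 and -0.10 over the alternatives. Of the SR proteins 5 of 6 were positive there, with a median of 0.10, beside -0.05 over all genes. That count ranged between 3 and 6 over the alternatives and the median between -0.04 and 0.22, with 3 positive and -0.04 without control 1 and 4 positive and 0.03 with the batch term. These are counts of signs, of values none of which passed the adjusted threshold in the fit with group terms only.

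**Figure D4:**
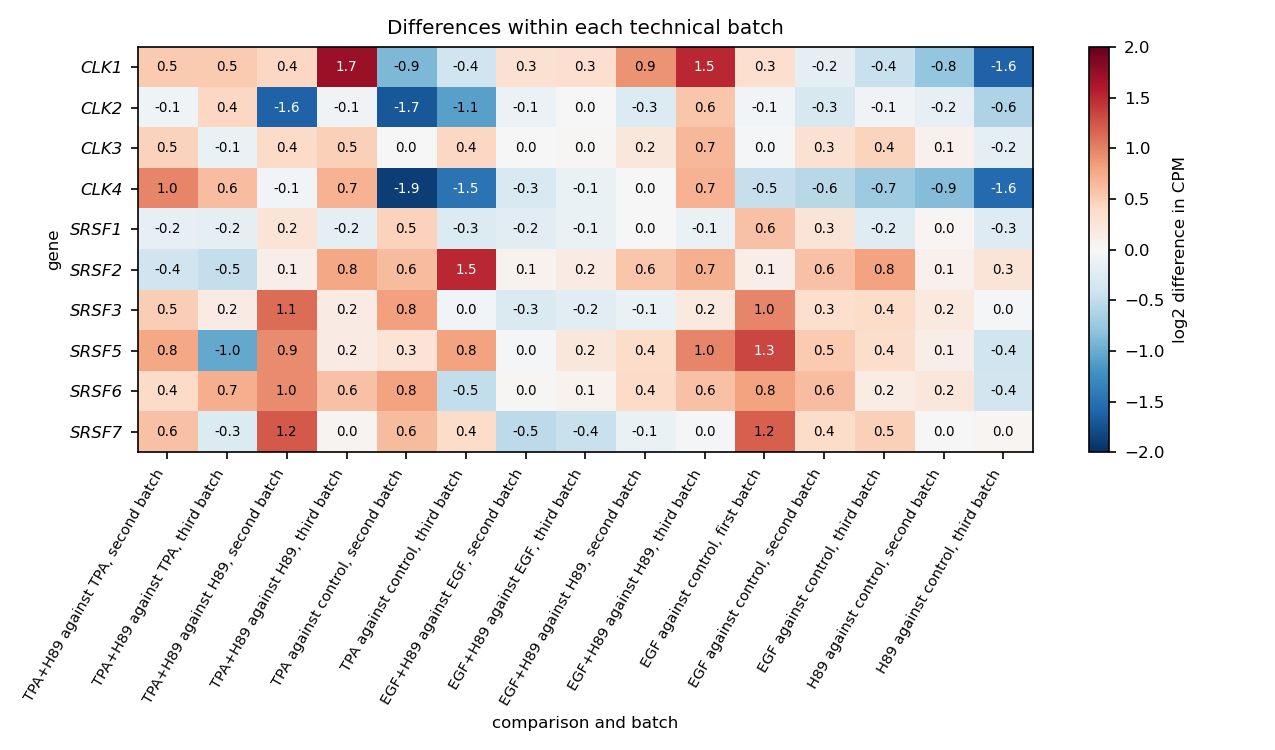
Log2 differences in CPM of the 10 members (rows) within each technical batch, for 7 comparisons (columns), from blue for lower to red for higher in the first-named group. CLK4 in TPA against control is -1.89 and -1.48 in the second and the third batch, and SRSF7 in TPA+H89 against H89 is 1.23 and 0.05.

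Of the wider splicing machinery, 110 genes in 6 lists were measured beside the members, and no gene of any list passed the adjusted threshold in any comparison by edgeR's quasi-likelihood test. In TPA against control the median log2 fold change was 0.30 over the 6 other SR proteins (6 positive), 0.31 over 24 Tra2 and SR-related proteins (20 positive) and 0.46 over 23 hnRNP proteins (19 positive), beside -0.02 over all tested genes. It was 0.07 over 15 other kinases, phosphatases and the importin of SR proteins, -0.06 over 27 core spliceosome genes and -0.03 over 15 genes of nonsense-mediated decay and the exon junction complex. In EGF against control the same lists had medians of 0.25, 0.14, 0.22, 0.10, 0.04 and -0.09, beside 0.02.

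TRA2B, an SR-like activator of exon inclusion that carries its own poison exon, had 82.7 and 102 CPM in TPA, against 51.1 to 56.0 CPM in control. Its log2 fold change was 0.81 ± 0.262, with adjusted p = 0.259, and EGF libraries, at 63.9 to 97.8 CPM, also lay above all controls (0.58 ± 0.238, adjusted p = 1). DYRK3, a kinase that dissolves nuclear speckles and other condensates, had 32.7 and 50.3 CPM in TPA, against 16.6 to 24.1 CPM in control, a log2 fold change of 1.05 ± 0.26 with adjusted p = 0.149. DYRK2, a relative known for phosphorylating p53, had 53.9 and 68.5 CPM in TPA, against 32.4 to 42.6 CPM in control, a log2 fold change of 0.72 ± 0.216 with adjusted p = 0.223. HNRNPLL, which controls splicing of CD45 in T cells, had 55.0 and 128 CPM in TPA, against 42.6 to 45.2 CPM in control, a log2 fold change of 1.07 ± 0.298 with adjusted p = 0.204. Both TPA libraries were above all controls for each of these 4 genes, as for 9.6% of tested genes. Their lowest p, by which they were named, fell in this comparison, so that separation is a description only.

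Of the other genes named by the same rule, SCAF1, MAGOH and HNRNPH2 rested on 1 library or on few counts. SCAF1, an SR-related protein that binds the tail of RNA polymerase II, had 42.3 and 207 CPM in TPA, against 16.8 to 57.1 CPM in EGF. MAGOH, a core subunit of the exon junction complex, had 40.8 CPM in TPA+H89 library 1 and 7.04 CPM in library 2, against 6.67 to 7.01 CPM in H89. HNRNPH2 had 0 counts in both TPA libraries, against 78, 2 and 16 counts in controls. SNRPD2 and SNRPE, subunits of the Sm ring, had log2 fold changes of 1.52 ± 0.528 and 1.53 ± 0.565 in TPA+H89 against TPA, each with adjusted p = 0.713. SMG8, a regulator of the decay kinase SMG1, had -0.61 ± 0.229 there, also with adjusted p = 0.713. SRSF8 in TPA against EGF had 0.69 ± 0.314 (adjusted p = 0.369). In these comparisons, which gave the lowest p by which they were named, the groups of SNRPD2, SNRPE, SMG8 and SRSF8 did not overlap. Of tested genes, 10.6% were so separated upwards and 11.1% downwards in TPA+H89 against TPA, and 9.71% upwards in TPA against EGF. SRSF9 spread between 27.8 and 106 CPM within EGF alone.

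The genes whose levels followed CLK1 most closely were taken from 10854 genes with a mean of at least 5 CPM, by Pearson's correlation of log2 CPM over the 15 libraries after the mean of each batch was removed. They were MYLIP (0.80), SNORD84 (0.80), VIT (0.79), FAM46C (0.79) and SNORD38B (0.79). MYLIP, the ubiquitin ligase that degrades the LDL receptor, had 38.2 and 38.5 CPM in EGF+H89 and 10.6 to 25.7 CPM in H89, and its correlation without removal of batch means was 0.75. The small nucleolar RNAs SNORD84 and SNORD38B were at 232 to 748 CPM in EGF 1 and control 1 and at most 1.46 CPM elsewhere. They reached the mean of 5 CPM only through those 2 libraries, their likeness over the others rests on values near 0, and their correlations without removal of batch means were -0.18 and -0.08. The libraries share treatment, batch and scaling, and the list is a description of likeness over these libraries only.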

How the data were processed

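Total RNA depleted of ribosomal RNA was sequenced in strand-specific libraries, per the labels' protocols, on 3 platforms that are not tied to samples. The authors deposited 1 table of raw counts per gene for 28374 genes and 16 samples, and HOMER, hg19 and GRCh37 are named in the submitters' processing notes. The aligner and the annotation release were not given in the sources used here. From those deposited counts, 15 libraries were used, since 1 control was an identical copy. Genes were kept by filterByExpr (smallest count 10), which left 18575, and scaled with TMM factors. Tests were edgeR's quasi-likelihood test (edgeR 4.0.16, R 4.3.3) in 1 model with a term per group, with Benjamini-Hochberg adjustment across every tested gene and a threshold of 0.05. Standard errors and 95% intervals of log2 fold changes come from that fit. Within-batch differences are of log2 CPM, and likeness to CLK1 was computed on log2 CPM (prior count 2). The technical batches were read from the counts and not from labels: more genes at a count of 1 than at 2 set the first, and ribosomal RNA genes above 10% of counts set the second. Motifs and transcript classes came from RefSeq and GENCODE tables.

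The members and gene lists were chosen with earlier results of these data known. Named were all members, from each list the called genes or else the 2 of lowest p, and the 5 genes most like CLK1. HNRNPDL and HNRNPLL were matched through synonyms, and 1 listed core spliceosome gene failed the filter. Alternatives were DESeq2 1.42.0, its size factors in edgeR, no filter, 10 counts in 50% or more of the libraries, only the compared groups, both control copies, a batch term and leaving out each library, and, chosen after seeing the data, leaving out the first technical batch and a batch term with the second batch split at 20% ribosomal RNA counts. The scripts were tested on simulated data.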

Additional observations from a re-analysis of the deposited data

How the results depend on the processing

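Among the counts of members called, those for TPA against control and the TPA by H89 interaction moved, where the value was 0. The interaction had 1 (CLK4) with the batch term and the second batch split by ribosomal RNA share. TPA against control had 2 with that split (CLK4 and SRSF2), in a fit where it rests on the third batch. The count was 1 with the batch term (CLK4) and 3 with DESeq2 (CLK2 at -1.26 with adjusted p = 0.0319, CLK4 at -1.39 with 0.0356 and SRSF2 at 1.19 with 0.0170). Without the first technical batch it was 1 (CLK4, adjusted p = 0.0471), and also 1 with the batch term added to that (CLK4, adjusted p = 0.0343). Of the fits without a single library, only that without TPA library 1 moved the count, for SRSF2 at a log2 fold change of 1.43. That fit held 1 TPA library. The other alternatives left them at 0.

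Some log2 fold changes printed above changed sign. Leaving out single libraries, CLK1 in EGF against control ranged between -0.45 and 0.02 (without control 3), CLK2 there between -0.31 and 0.00 (without control 2), SRSF1 there between -0.07 (without control 1) and 0.40, and SRSF6 in TPA against control between -0.13 (without TPA library 1) and 0.70. In TPA against control SRSF1 was -0.04, SRSF3 -0.01 and SRSF6 -0.17 with the batch term and the second batch split. SRSF1 in EGF against control was 0.00 without the first batch and -0.01 with the batch term added to that. The cause was not tested.

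Counts over all genes depended more on the model. TPA against control had 77 genes called, against 476 with DESeq2, 233 with the batch term, 2075 with the second batch split as well, 0 with only the compared groups and 13 to 1187 when single libraries were left out, the highest without TPA library 1. EGF against control had 5, against 55 with DESeq2. EGF+H89 against H89 had 5, and TPA+H89 against H89 had 18, against 50 and 80 with the batch term. TPA against EGF had 0, against 266 with DESeq2. Without TPA library 1, TPA against EGF had 1165, TPA+H89 against TPA 719 and the TPA by H89 interaction 126, and with the second batch split 2118, 621 and 133, all against 0. That split also gave 88 in EGF against control, 79 in EGF+H89 against H89 and 115 in TPA+H89 against H89.

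Depth limits CLK2 most, with 31 counts in TPA+H89 library 1. Scaling by size factors moved the median of all genes by at most 0.05. No paired analysis was run, and the labels carry only running sample names, with no replicate number shared across groups. Treatments recur in the order of those names, and a term for sets read from that order was not tested. The technical batch was fitted as a term instead, with the values above.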
